A study of Mus musculus with 42 samples.

Results

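Pomc and Cartpt, the genes of the best known satiety peptides of the hypothalamus, were followed across 4 hypothalamic nuclei of fed and fasted mice. They are 2 of the 37907 genes in the deposited expression table, and they were picked by gene symbol. Pomc (ENSMUSG00000020660) lies on chromosome 12 from 3954951 to 3960642 on the plus strand, and Cartpt (ENSMUSG00000021647) on chromosome 13 from 99898489 to 99901091 on the minus strand (GRCm38, 1-based). The annotation gives Pomc 1318 exonic bases in 5 exon blocks and Cartpt 1277 exonic bases in 3. No exonic base of either overlaps another gene (0%), and 0% of their 50-base stretches recur in a transcript of another gene, so a library without strand information can count both.

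All mice were wild-type adult males of the strain C57/BL6, with free access to food (fed) or without food for 24 hours (fasted) before brains were collected. Arcuate (ARC), ventromedial (VMH), dorsomedial (DMH) and paraventricular (PVN) nuclei were cut from frozen sections by laser-capture microdissection. The 42 libraries comprised 5 fed and 5 fasted ARC, 6 and 6 VMH, 5 and 4 DMH, and 6 and 5 PVN libraries. All nuclei came from the same brains, and the labels do not say which libraries share a mouse, so libraries were treated as separate samples and tests between nuclei do not account for the sharing. Each library is bulk tissue, in which fewer cells of a type and less RNA per cell cannot be told apart.

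Pomc encodes proopiomelanocortin, a precursor that prohormone convertases cut into melanocortins such as α-MSH and into β-endorphin. In the arcuate nucleus, α-MSH released by POMC neurons acts on the melanocortin receptors MC3R and MC4R to reduce food intake, and agouti-related protein, made by a neighbouring set of arcuate neurons, opposes it at the same receptors. Cartpt encodes the precursor of CART (cocaine- and amphetamine-regulated transcript) peptides, which POMC neurons of the arcuate nucleus also make, but which are found as well in other hypothalamic neurons, among them cells that make melanin-concentrating hormone. Leptin is known to stimulate POMC neurons, and both genes are textbook examples of transcripts that are less abundant in the arcuate nucleus when food is withheld.

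The start regions of both genes are shown because their transcripts shared their highest level in the arcuate nucleus but differed in the other nuclei. The RefSeq promoter sequences (GRCm38.p6) run from 250 bases before to 50 bases after the RefSeq start, at chr12:3954695-3954994 on the plus strand for Pomc and at chr13:99900634-99900933 on the minus strand for Cartpt. The RefSeq start of Pomc lies 6 bases upstream of the GENCODE gene start given above. That of Cartpt lies 408 bases downstream of the GENCODE gene start, so the window is inside the gene as given, and 42 bases upstream of the start of the other GENCODE transcript. Each is written 5′ to 3′ on the strand of its gene, and capitals mark TATAA, searched on that strand, and the palindromic cyclic AMP response element TGACGTCA.
Pomc: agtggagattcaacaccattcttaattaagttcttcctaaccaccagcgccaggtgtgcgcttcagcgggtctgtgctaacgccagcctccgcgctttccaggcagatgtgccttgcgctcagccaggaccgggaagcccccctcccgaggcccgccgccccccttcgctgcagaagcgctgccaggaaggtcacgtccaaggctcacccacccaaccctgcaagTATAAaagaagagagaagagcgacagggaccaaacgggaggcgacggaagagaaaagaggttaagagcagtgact
Cartpt: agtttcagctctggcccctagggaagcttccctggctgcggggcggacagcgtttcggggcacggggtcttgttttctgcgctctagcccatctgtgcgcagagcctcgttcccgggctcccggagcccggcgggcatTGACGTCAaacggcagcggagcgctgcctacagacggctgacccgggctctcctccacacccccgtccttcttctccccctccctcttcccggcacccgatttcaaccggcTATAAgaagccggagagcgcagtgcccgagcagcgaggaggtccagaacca

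Both windows held TATAA, beginning at position -25 in Pomc and at position -1 in Cartpt relative to the RefSeq start, as did 17.5% of 32851 promoters of the same length. The element TGACGTCA was present in the Cartpt window, beginning at position -112, and not in the Pomc window, and 1.79% of all promoters held it. The E-box letters CANNTG occurred in both, as in 72.3% of promoters. On a search of both strands, neither window held the STAT-type letters TTCNNNGAA (8.30% of promoters) or the FoxO-type letters GTAAACA (3.65%). The GC content was 59% in the Pomc window and 66% in the Cartpt window, against a median of 52.7% over all promoters. These matches describe the letters of the windows only.

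The deposited values are RPKM (reads scaled to exon length and library size), so levels of the 2 genes can be compared per length. The depth estimated from the table averaged 4.57 M reads and ranged from 1.33 to 13.2 M, with an added count of 5 reads in the mean library. This depth is the library size behind the RPKM values. The study reports a higher mean number of sequenced reads per sample, which is another measure. A Pomc value with no reads would sit near 0.831 RPKM and a Cartpt value near 0.857 RPKM, and no library was that low, the lowest being 3.36 RPKM for Pomc and 8.14 RPKM for Cartpt. In the DMH, depth differed between fed (3.91 ± 0.862 M reads, SD, n = 5) and fasted libraries (7.38 ± 4.0 M reads, n = 4). The study's methods name 3 batches of capture and preparation, the labels assign none, and the 3 sets of libraries found from the values are called batches here. The deposited log2 values had equal batch means for each gene, although the first batch held 4 VMH but only 1 DMH library. Within groups, Cartpt was 0.39 higher in the first batch and 0.19 lower in the other two on the log2 scale, a gap that only 0.0704% of varying genes exceeded, while for Pomc the offsets were 0.0020 and -0.00098. Cartpt results are for this reason also given from a fit with batch as a term.

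Summed over each marker list, mean fed levels were highest in the labelled nucleus. The VMH list summed to 117 RPKM there (at most 4.57 elsewhere) and the DMH list to 169 (at most 23.8). The PVN list summed to 6218 RPKM (at most 77.9) and the ARC list to 845 (at most 143). Single markers were less confined, among them Ghrh, Tac2, Th and Ppp1r17, whose values are given below. In fed mice, Nr5a1 and Fezf1, transcription factors of the VMH, averaged 21.8 and 94.99 RPKM there and at most 0.577 and 4.24 RPKM elsewhere. Oxt, the oxytocin gene, averaged 4066 RPKM in the PVN and at most 51.4 RPKM elsewhere, and Npvf, which encodes an RFamide peptide of the DMH, averaged 103 RPKM in the DMH and at most 2.502 RPKM elsewhere. Agrp, the gene of agouti-related protein, averaged 133 RPKM in the ARC and 3.49 to 5.05 RPKM elsewhere. Pituitary corticotrophs also express Pomc. Of the 8 pituitary markers in the table, Gh and Prl averaged 1.26 ± 0.0418 and 1.37 ± 0.223 RPKM in the fed ARC (SD, n = 5). All of these Gh values, and Prl in fed ARC replicates 1, 2 and 4, recurred in other libraries of the same batch. Values with no reads recur in this way, so they are not measured levels. Tbx19, a corticotroph transcription factor, ranged from 1.28 to 3.19 RPKM in the fed ARC and from 0.292 to 0.597 RPKM in the fed VMH. The first fed ARC library held 5.47 RPKM of Cga, 8.40 RPKM of Tshb and 5.82 RPKM of Fshb, pituitary hormone subunit genes. The 8 markers summed to 12.4 to 28.4 RPKM in the fed and 13.5 to 19.2 RPKM in the fasted ARC. In the other fed nuclei they summed to 9.59 to 16.6 RPKM (VMH), 11.7 to 22.5 RPKM (DMH) and 10.6 to 21.7 RPKM (PVN), which overlapped the ARC. These sums include values of genes with no reads. The part of pituitary transcripts in the ARC level of Pomc was not tested.

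Pomc was an arcuate transcript with low levels elsewhere. In fed mice the 5 ARC libraries held 517, 531, 493, 634 and 414 RPKM. The VMH libraries ranged from 12.5 to 25.7 RPKM with a median of 21.1, the DMH libraries held 11.3, 12.2, 15.4, 10.2 and 3.55 RPKM, and the PVN libraries ranged from 4.75 to 14.3 RPKM with a median of 7.22. No ARC library came near any library of another nucleus, and the other 3 nuclei overlapped in part. The mean of the fed ARC was 518 ± 79.2 RPKM (SD, n = 5), followed by the VMH with 19.4 ± 5.71 (n = 6), the DMH with 10.5 ± 4.36 (n = 5) and the PVN with 8.72 ± 4.30 (n = 6). These low levels rested on 10.6 to 141 estimated reads per fed library, against 2460 to 4062 in the fed ARC.

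**Figure D1:**
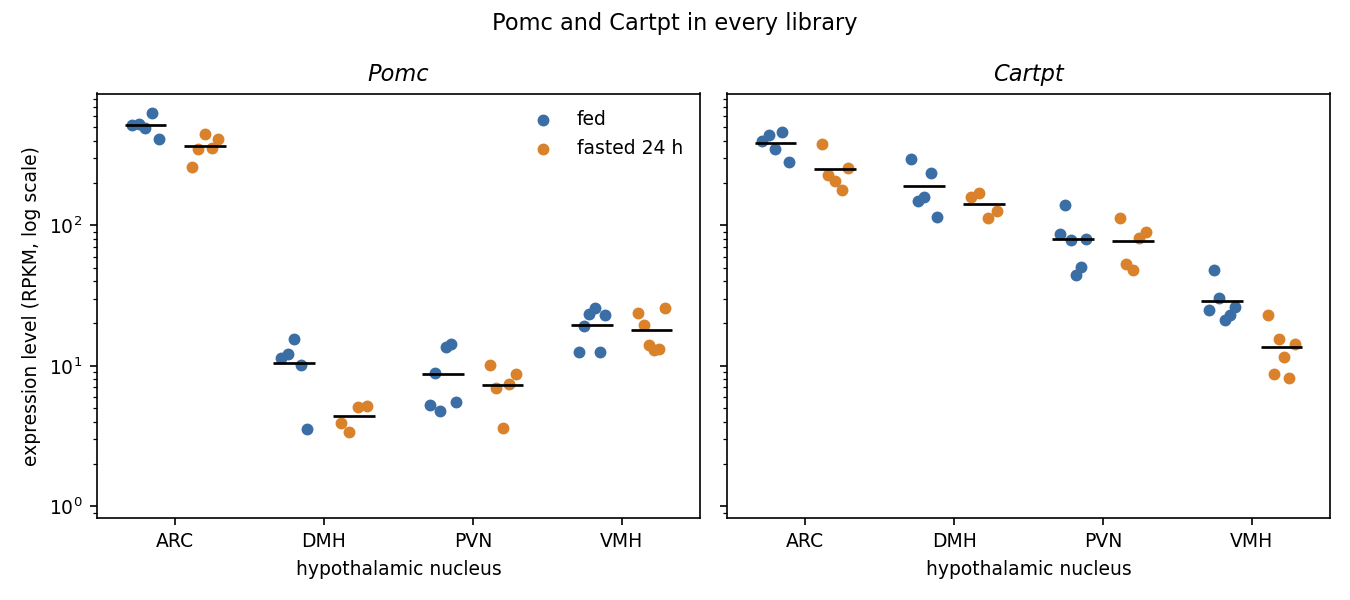
Level of Pomc (left) and Cartpt (right) in RPKM on a log axis, by nucleus, with a point for each library, blue for fed and orange for fasted mice, and a black line at the group mean. Pomc in fed mice averaged 518 RPKM in the ARC and under 20 RPKM in the other nuclei, whereas Cartpt stepped down from 387 RPKM in the ARC through 191 in the DMH and 80.0 in the PVN to 28.9 in the VMH.

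On the log2(RPKM + 1) scale, Pomc in fed mice was 4.71 higher in the ARC than in the VMH (SE 0.28, limma adjusted p = 1.33e-14), 5.59 higher than in the DMH and 5.84 higher than in the PVN. Of the 6 pairs of nuclei, 5 passed the threshold of an adjusted p of 0.1 in fed mice and 5 in fasted mice. Of the 33579 genes tested, 7.9% passed between ARC and VMH in fed mice, 2.79% between ARC and DMH, 4.13% between ARC and PVN, 5.24% between VMH and DMH, 9.84% between VMH and PVN and 3.42% between DMH and PVN. In fasted mice the same pairs had 8.91%, 3.21%, 4.19%, 3.94%, 9.24% and 3%. The VMH level exceeded that of the PVN by 1.13 in fed mice (SE 0.27, limma adjusted p = 0.00433) and by 1.204 in fasted mice (SE 0.28, limma adjusted p = 0.00398). It exceeded that of the DMH by 1.79 in fasted mice (SE 0.30, limma adjusted p = 0.000140), but in fed mice by 0.89, a difference that passed at an adjusted p of 0.0752 with all libraries in the fit and missed at 0.345 with only the VMH and DMH libraries compared. It also missed without any 1 of 6 libraries, namely fed DMH replicates 4 and 5 and fed VMH replicates 2, 3, 4 and 6 (limma adjusted p = 0.111 to 0.303), and was 0.58 without fed DMH replicate 5. DMH and PVN, the lowest neighbours, differed by 0.25 in fed mice (95% interval -0.33 to 0.82) and by -0.59 in fasted mice (95% interval -1.23 to 0.05).

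The Pomc level of the fed VMH was 3.75% of that of the ARC. The corresponding shares of other arcuate genes in the VMH were 2.78% for Agrp, 3.67% for Npy, which encodes neuropeptide Y, 4.34% for Tbx3, a transcription factor of arcuate neurons, and 2.42% for Ghrh, which encodes growth hormone-releasing hormone. The other markers of the arcuate list were at 3.70% (Tac2), 4.28% (Th) and 9.94% (Slc6a3) in the VMH. The added count raises such shares where a gene has few or no reads, as for Slc6a3 in fed VMH replicates 1, 4 and 6. The Npy share in the VMH includes fed replicate 1 at 41.5 RPKM, while the other fed VMH libraries held 4.20 to 11.5 RPKM. In the DMH the Pomc share was 2.03%, beside 2.62% for Agrp, 1.93% for Npy and 5.17% for Tbx3, but 32.7% for Ghrh, 47.5% for Tac2, 58.1% for Th and 21.96% for Slc6a3. In the PVN the Pomc share was 1.68%, beside 3.79% for Agrp, 2.18% for Npy, 5.80% for Tbx3 and 2.04% for Tac2, but 15.8% for Ghrh, 68.5% for Th and 13.7% for Slc6a3. Whether arcuate tissue in the cut carried the Pomc transcripts of the other nuclei was not tested.

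Cartpt was also highest in the ARC but was abundant in the DMH and PVN as well. In fed mice the ARC libraries held 401, 438, 352, 460 and 283 RPKM and the DMH libraries 297, 150, 159, 237 and 115 RPKM. The PVN libraries ranged from 44.1 to 141 RPKM with a median of 79.0, and the VMH libraries from 21.1 to 47.8 RPKM with a median of 25.6. Neighbours in this order overlapped, with 1 DMH library above the lowest ARC library, whereas ARC and PVN and DMH and VMH did not overlap. The fed means were 387 ± 71.0 RPKM in the ARC (SD, n = 5), 191 ± 73.8 in the DMH (n = 5), 80.0 ± 34.2 in the PVN (n = 6) and 28.9 ± 9.80 in the VMH (n = 6). The fed DMH thus held 49.5% of the arcuate level of Cartpt but 2.03% of that of Pomc.

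In fed mice all 6 pairs of nuclei passed for Cartpt. On the log2 scale the ARC exceeded the DMH by 1.07 (SE 0.29, limma adjusted p = 0.0442), the DMH exceeded the PVN by 1.27 (SE 0.28, limma adjusted p = 0.00555) and the PVN exceeded the VMH by 1.39 (limma adjusted p = 0.000347). The first and the second of these steps missed the threshold when only the libraries compared were fitted (limma adjusted p = 0.141 and 0.129). The first also missed without any 1 of fed ARC replicates 2 and 4 and fed DMH replicates 2, 3 and 5 (limma adjusted p = 0.103 to 0.157). All 3 passed with batch as a term (0.0130, 0.000481 and 4.46e-05). In fasted mice 4 of 6 pairs passed: ARC and DMH differed by 0.77 (95% interval 0.14 to 1.40, limma adjusted p = 0.269) and DMH and PVN by 0.93 (95% interval 0.30 to 1.56, limma adjusted p = 0.138). With batch as a term the latter difference was 1.05 and passed at an adjusted p of 0.0265. The VMH was lowest in both states, below the PVN by 2.43 in fasted mice (SE 0.28, limma adjusted p = 5.50e-08).

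Genes of peptides that hypothalamic CART neurons outside the arcuate nucleus are known to make differed between nuclei in other ways. Pmch, which encodes melanin-concentrating hormone, averaged 420 RPKM in the fed DMH, with a range from 220 to 1003, and 3.31 RPKM in the fed ARC. Hcrt, the hypocretin gene, averaged 187 RPKM in the fed DMH and 2.17 RPKM in the ARC. The DMH cuts therefore held transcripts of neurons best known from the lateral hypothalamus, beside Cartpt at 191 RPKM. Trh, which encodes thyrotropin-releasing hormone, averaged 128 RPKM in the PVN, 49.2 in the DMH and 10.1 in the ARC. Gal, the galanin gene, averaged 210 RPKM in the DMH and 90.3 in the ARC. None of the 5 genes of this list passed the fasting test in any nucleus. Only 0.0238% to 0.131% of all genes passed, depending on the nucleus, so a count of 0 in a list this short says little. Which cells carried Cartpt in each cut was not tested.

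The fasting comparison asked whether 24 hours without food changed the satiety transcripts in each nucleus. In the ARC, Pomc was at 517, 531, 493, 634 and 414 RPKM in fed and at 263, 348, 449, 355 and 410 RPKM in fasted libraries. The fasted libraries all lay below the fed mean, and the groups overlapped because 1 fasted library, at 449 RPKM, exceeded the lowest fed one. The mean was 365 ± 70.7 RPKM after fasting (SD, n = 5) against 518 ± 79.2 RPKM in fed mice (n = 5), a log2 difference of -0.51 (SE 0.30, 95% interval -1.11 to 0.09). It did not pass across all genes (limma adjusted p = 0.770), and the two-sided exact permutation p for this gene alone was 0.0159. With libraries exchanged only within batches the permutation p was 0.0278, the smallest that scheme allows in the ARC. Within the 3 batches the difference was -0.97, -0.37 and -0.43. In each batch the fasted libraries lay below the fed ones.

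Cartpt in the ARC was at 401, 438, 352, 460 and 283 RPKM in fed and at 383, 229, 206, 180 and 255 RPKM in fasted libraries. The first fasted library stood above the fed ones at 352 and 283 RPKM. It belonged to the first batch, in which the deposited Cartpt values were offset upward within groups while the batch means were equal. The means were 387 ± 71.0 RPKM in fed (SD, n = 5) and 250 ± 79.0 RPKM in fasted mice (n = 5), a log2 difference of -0.65 (SE 0.29, 95% interval -1.25 to -0.06). The difference did not pass (limma adjusted p = 0.647, or 0.733 with batch as a term). The two-sided exact permutation p was 0.0238, or 0.0278 within batches, the smallest that scheme allows in the ARC. With the batch term taken out, fed libraries ranged from 307 to 526 RPKM and fasted libraries from 205 to 293 RPKM and did not overlap, and 0.334% of all genes tested in the ARC were likewise lower without overlap. Within batches the differences were -0.07, -0.85 and -0.75, the first from 1 fed and 1 fasted library. In each batch the fasted libraries lay below the fed ones.

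In the VMH, where its level was lowest, Cartpt showed its largest difference between states. The 6 fed libraries held 25.02, 47.8, 30.3, 21.1, 22.8 and 26.2 RPKM and the 6 fasted libraries 23.0, 8.74, 15.6, 11.6, 8.14 and 14.3 RPKM. A single fasted library, at 23.0 RPKM, reached into the fed range, and it too belonged to the first batch. The means were 28.9 ± 9.80 RPKM in fed (SD, n = 6) and 13.6 ± 5.47 RPKM in fasted mice (n = 6), a log2 difference of -1.06 (95% interval -1.61 to -0.52). The two-sided exact permutation p was 0.00649, and within batches it was 0.00926, the smallest that scheme allows. Across all genes the difference missed the threshold without a batch term (SE 0.27, limma adjusted p = 0.149) and passed with it (SE 0.23, limma adjusted p = 0.0872), when 0.0715% of genes passed in the VMH, against 0.131% without the term. That call did not withstand the loss of most single libraries. With the batch term, it was kept in 4 of 12 refits (without fasted replicates 1, 3 or 6 or fed replicate 1) and lost in 8 (without fasted replicates 2, 4 or 5 or fed replicates 2, 3, 4, 5 or 6), with differences of -1.18 to -0.87 and limma adjusted p from 0.0683 to 0.237. Over all alternative fits of the full set of libraries or of the VMH libraries alone, the limma adjusted p ranged from 0.0872 to 0.813.

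With the batch term taken out, Cartpt in the VMH ranged from 19.2 to 36.6 RPKM in fed and from 6.69 to 17.8 RPKM in fasted libraries and did not overlap, and 0.146% of genes tested were likewise lower without overlap. The differences within the 3 batches were -1.22, -0.87 and -1.11. Without the fed library at 47.8 RPKM, which stood apart from the others and was of the first batch, the difference was -0.91 (limma adjusted p = 0.319), and without the fasted library at 23.0 RPKM it was -1.22 and passed (limma adjusted p = 0.0729). The values rested on 15.4 to 163 estimated reads per library. Markers of the neighbouring arcuate nucleus summed to 17.0 to 61.1 RPKM in fed VMH libraries (median 23.8) and 11.99 to 31.1 RPKM in fasted ones (median 24.7). Fed VMH replicate 1 held 41.5 RPKM of Npy. Fed VMH replicate 2, the library with 47.8 RPKM of Cartpt, held the most Agrp (8.82 RPKM), Th (2.84 RPKM) and Slc6a3 (0.950 RPKM) of the fed VMH libraries. It did not hold the most Ghrh, Tac2, Tbx3 or Npy. None of the 7 markers passed the fasting test, which 0.131% of all genes passed in the VMH. The 2 VMH markers averaged 21.8 and 23.1 RPKM (Nr5a1) and 94.99 and 95.7 RPKM (Fezf1) in fed and fasted mice. Of 5 astrocyte markers, Aqp4, the water channel of astrocyte endfeet, fell in the same comparison, from 20.03 ± 5.001 to 9.89 ± 2.05 RPKM (SD, n = 6 each, limma adjusted p = 0.0477), while the summed astrocyte markers ranged from 84.1 to 122 RPKM in fed and from 68.7 to 97.9 RPKM in fasted libraries. Their part in the Cartpt difference was not tested.

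**Figure D2:**
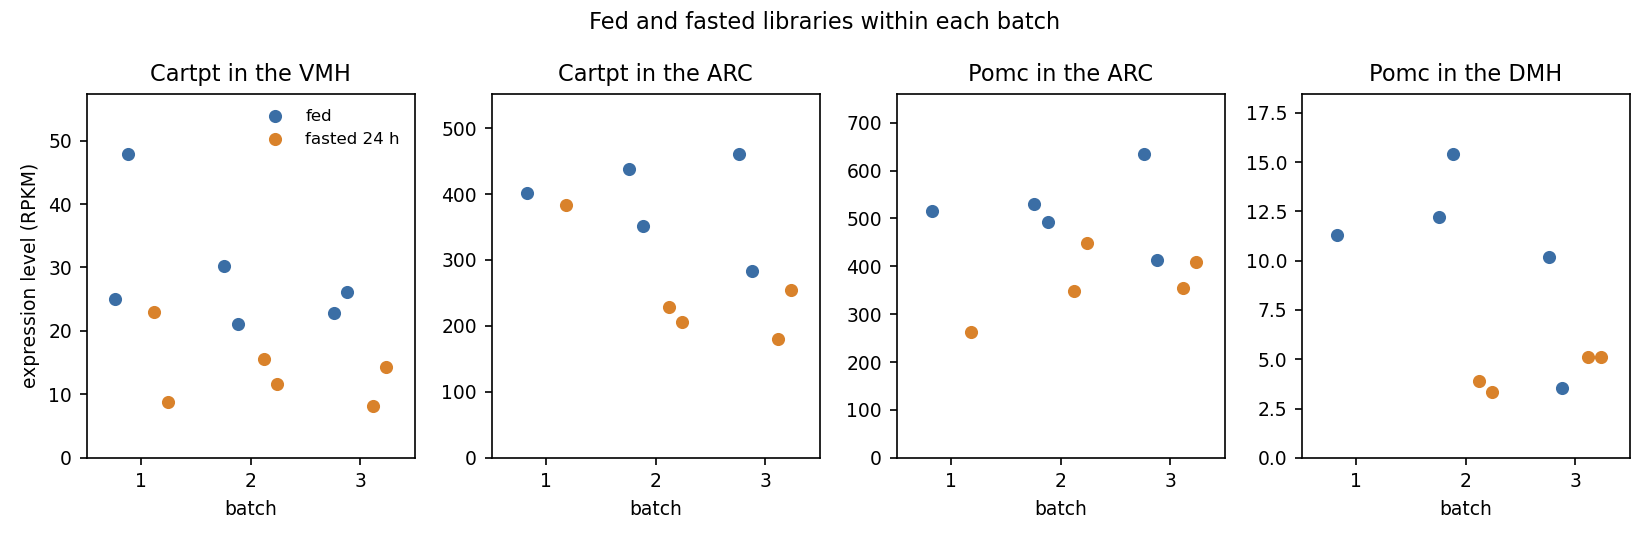
Expression level in RPKM of fed (blue) and fasted (orange) libraries, 1 point each, within the 3 batches, for Cartpt in the VMH and ARC and Pomc in the ARC and DMH. In every batch the fasted libraries lay below the fed ones for Cartpt in the VMH and for both genes in the ARC. The first batch held no fasted DMH library.

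Pomc in the VMH did not share this pattern. Fed libraries ranged from 12.5 to 25.7 RPKM with a median of 21.1, and fasted libraries from 12.9 to 25.6 RPKM with a median of 16.7. The ranges covered each other almost completely. The log2 difference was -0.09 (SE 0.27, 95% interval -0.64 to 0.45, limma adjusted p = 1, exact permutation p = 0.762), and its sign differed between batches (0.43, -0.82 and 0.11).

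In the DMH, Pomc was at 11.3, 12.2, 15.4, 10.2 and 3.55 RPKM in fed and at 3.90, 3.36, 5.12 and 5.14 RPKM in fasted libraries. The fed libraries lay above all fasted ones, except the one at 3.55 RPKM, which lay among them. The log2 difference was -0.999 (SE 0.31, 95% interval -1.64 to -0.36), with an unadjusted limma p of 0.00304 that did not pass after adjustment (limma adjusted p = 0.440). The exact permutation p was 0.0635, or 0.167 within batches. The difference was -1.67 in the second and -0.22 in the third batch, the first batch holding no fasted DMH library. Fasted DMH libraries were deeper than fed ones, and with depth as a covariate the difference was -1.02 (limma adjusted p = 0.551). Without the fed library at 3.55 RPKM the difference was -1.31 (limma adjusted p = 0.149).

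Cartpt in the DMH was at 297, 150, 159, 237 and 115 RPKM in fed and at 159, 172, 113 and 127 RPKM in fasted libraries, which overlapped. The log2 difference was -0.36 (SE 0.31, 95% interval -0.99 to 0.27, limma adjusted p = 1), and -0.24 with batch as a term. In the PVN, neither gene differed beyond the spread between libraries. Fasted PVN libraries held 10.1, 6.93, 3.59, 7.38 and 8.69 RPKM of Pomc, 4 of them within the fed range of 4.75 to 14.3 and 1 below it, for a difference of -0.16 (95% interval -0.74 to 0.41). They held 113, 53.2, 48.1, 81.7 and 89.3 RPKM of Cartpt, within the fed range of 44.1 to 141, for a difference of -0.02 (95% interval -0.59 to 0.55), which was 0.05 with batch as a term.

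**Figure D3:**
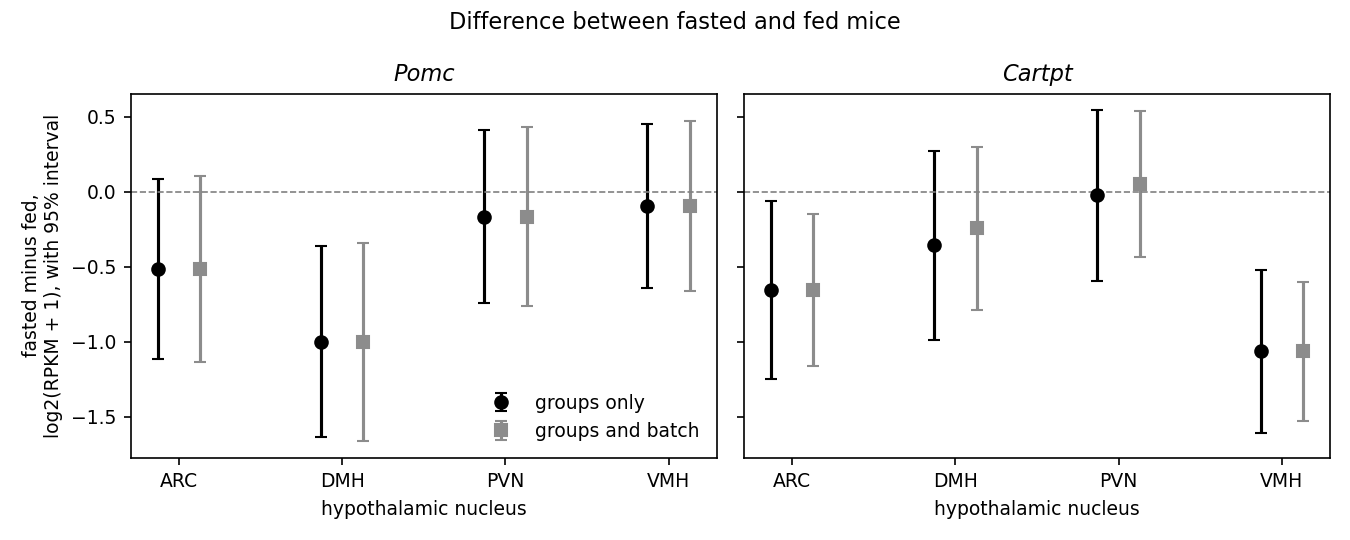
Difference between fasted and fed mice on the log2(RPKM + 1) scale for Pomc (left) and Cartpt (right) by nucleus, with 95% intervals, from the fit on groups alone (black circles) and with batch as a term (grey squares). The Cartpt interval in the VMH runs from -1.61 to -0.52 without and from -1.53 to -0.60 with the batch term.

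Of the 8 fasting comparisons, 0 passed in the fit on groups and 1, Cartpt in the VMH, passed with batch as a term. In the fit on groups, the unadjusted limma p was under 0.05 for Pomc in the DMH and for Cartpt in the ARC and VMH. The share of all genes under that unadjusted value was not counted. At the adjusted threshold, the share of all genes that passed in the ARC, VMH, DMH and PVN was 0.0566%, 0.131%, 0.0238% and 0.0715%. With batch as a term the shares at that threshold were 0.0476%, 0.0715%, 0.0179% and 0.0625%. The 8 exact permutation p-values are not adjusted for their number. An interaction term over the 4 nuclei asked if the fasting differences themselves were unequal. It did not pass for Pomc (unadjusted p = 0.143, limma adjusted p = 1) or for Cartpt (unadjusted p = 0.0692, limma adjusted p = 1), nor for Cartpt with batch as a term (unadjusted p = 0.0123, limma adjusted p = 1). The interaction passed for 0.00596% of genes without and 0.00893% with the batch term. The larger difference of Cartpt in the VMH is thus not shown to differ from that in other nuclei.

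Both transcripts are measured in the same library, so their ratio shows whether they moved apart. In the fed ARC, Cartpt divided by Pomc was 0.776, 0.825, 0.714, 0.726 and 0.684. In the fasted ARC it was 1.46, 0.657, 0.460, 0.508 and 0.623, more widely spread, and the first of these libraries was that of the first batch. The mean log2 ratio differed by -0.14 (exact permutation p = 0.722, or 0.611 within batches). In 10 refits leaving out 1 library, the difference ranged from -0.42 to -0.0032 and the exact permutation p from 0.0159 to 0.952. The difference of -0.42 and the p of 0.0159 were those without the first fasted library. The other 9 refits gave an exact permutation p above 0.05. In the fed VMH the ratio was 1.92, 2.404, 1.28, 0.828, 1.77 and 1.14, and in the fasted VMH 0.974, 0.479, 1.10, 0.904, 0.648 and 0.576. All 6 fasted libraries lay below the fed mean, and the log2 ratio differed by -0.97 (exact permutation p = 0.0152, or 0.0278 within batches). In the DMH the ratio had a median of 21.2 in fed and 26.8 in fasted mice (difference of mean log2 ratios 0.64, exact permutation p = 0.190). In the PVN the median was 13.0 in fed and 9.88 in fasted mice, whereas the mean log2 ratio was 0.14 higher after fasting (exact permutation p = 0.714). Fed PVN replicates 4 and 5 had ratios of 3.09 and 3.39. The mean difference was -0.15 without replicate 4 and -0.12 without replicate 5.

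The opposing pair of the arcuate nucleus, Agrp over Pomc, did not overlap between states in the ARC. The share of gene pairs whose ratios separate in this way was not counted, here or for Npy over Pomc below. The ratio was 0.348, 0.296, 0.224, 0.184 and 0.255 in fed and 1.34, 1.16, 0.760, 1.68 and 0.859 in fasted ARC libraries. The lowest fasted ratio was above the highest fed one. The log2 ratio was 2.12 higher after fasting (exact permutation p = 0.00794, the smallest for 5 against 5 libraries, and 0.0278 within batches). In the same libraries Agrp rose from 133 ± 32.9 to 409 ± 108 RPKM (SD, n = 5 each), a log2 difference of 1.61 (SE 0.33, limma adjusted p = 0.0613). In the other nuclei, where Agrp was at 3.12 to 5.05 RPKM, the ratio differed by -0.03 (VMH), 1.18 (DMH) and 0.00046 (PVN) (exact permutation p = 0.926, 0.127 and 0.991). Npy over Pomc was 1.85 higher on the log2 scale after fasting in the ARC, without overlap (exact permutation p = 0.00794, or 0.0278 within batches), and 2.02 higher in the DMH, with overlap (exact permutation p = 0.0476, or 0.111 within batches). It differed by -0.22 in the VMH (exact permutation p = 0.784) and by 0.47 in the PVN (exact permutation p = 0.247). The 12 ratio tests are not adjusted for their number.

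**Figure D4:**
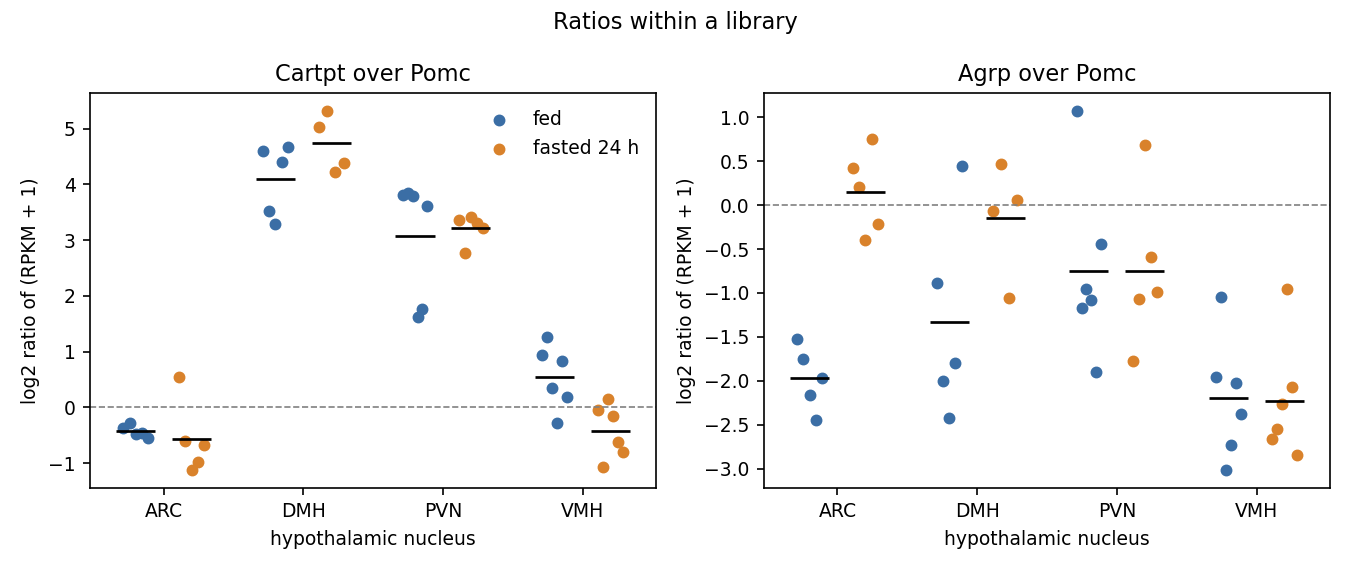
Log2 ratio of Cartpt to Pomc (left) and of Agrp to Pomc (right), from RPKM + 1, by nucleus, with a point for each library, blue for fed and orange for fasted mice, and a black line at the group mean. Agrp over Pomc in the ARC does not overlap between fed (0.184 to 0.348) and fasted libraries (0.760 to 1.68), and Cartpt over Pomc is highest in the DMH.

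Around these peptides, the 7 genes of the processing machinery summed to means of 883 (ARC), 919 (VMH), 928 (DMH) and 1177 RPKM (PVN) in fed mice. None of the 7 passed the fasting test in any nucleus, where 0.0238% to 0.131% of all genes passed. Cpe, carboxypeptidase E, which trims the peptides after cleavage, averaged 539 RPKM in the fed ARC and 533 RPKM in the fasted ARC. Pcsk1 and Pcsk2, the convertases that cut the POMC precursor, averaged 18.5 and 17.2 RPKM in the fed and 20.3 and 20.8 RPKM in the fasted ARC. Pcsk1 was more abundant in the PVN, at 39.7 RPKM in fed mice. Prcp, a carboxypeptidase that inactivates α-MSH, averaged 5.96 RPKM in the fed and 3.20 RPKM in the fasted ARC (log2 difference -0.77, SE 0.25, limma adjusted p = 0.453). The median log2 difference of the list in the ARC was 0.16, with a median of 0 over all genes tested.

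Of 11 melanocortin receptors and modulators, 10 passed the filter on low values and 1, Agrp, rose in the ARC, with 0 in the other nuclei. The fasting test was passed by 0.0566% of all genes in the ARC and by 0.0238% to 0.131% in the other nuclei. Mc3r, a receptor found on arcuate neurons and elsewhere, had fed means of 10.9 RPKM (ARC), 11.3 RPKM (VMH), 2.44 RPKM (DMH) and 1.72 RPKM (PVN). Mc4r, the receptor best known for appetite control, was low throughout, with its highest fed mean in the PVN at 3.996 RPKM and 1.98 RPKM in the ARC. Mrap2, an accessory protein of these receptors, averaged 30.6 RPKM in the fed and 25.4 RPKM in the fasted ARC. The median difference of the list in the ARC was 0.03. None of the 3 opioid receptor genes, whose products bind β-endorphin and related peptides, passed in any nucleus.

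Among 12 genes of signals that POMC neurons are known to receive, 1 rose in the ARC with fasting and 0 passed elsewhere. Of all genes, 0.0566% passed in the ARC and 0.0238% to 0.131% in the other nuclei. The gene that rose was Lepr, the leptin receptor gene, from 3.18 ± 0.321 to 9.09 ± 3.10 RPKM (SD, n = 5 each), a log2 difference of 1.22 (SE 0.17, limma adjusted p = 0.000651). The lowest fasted library, at 5.80 RPKM, was above the highest fed one, at 3.51 RPKM. The share of all genes that were higher without overlap in the fasted ARC is not given here. Arcuate neurons other than POMC neurons also express Lepr, and bulk values do not say in which cells it rose. Ghsr, the ghrelin receptor gene, averaged 6.35 RPKM in fed and 14.0 RPKM in fasted ARC libraries (log2 difference 1.02, SE 0.27, limma adjusted p = 0.263). Socs3, an inhibitor of leptin signalling, averaged 1.97 and 0.889 RPKM (limma adjusted p = 0.514). The median difference of the list was 0.15 in the ARC and -0.08 in the VMH.

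None of the 7 tested transcription factor genes of POMC neurons passed in any nucleus, where 0.0238% to 0.131% of all genes passed. Tbx3 averaged 31.1 RPKM in the fed and 35.2 RPKM in the fasted ARC, and Isl1, a factor needed for Pomc expression, 17.1 and 14.5 RPKM. Prdm12, which takes part in the onset of Pomc expression, averaged 2.19 and 4.87 RPKM there (log2 difference 0.81, limma adjusted p = 0.325) and under 1 RPKM in the other nuclei. Of the 7 arcuate markers in the table, Agrp alone passed, while Npy averaged 345 ± 65.8 RPKM in fed and 913 ± 356 RPKM in fasted mice (log2 difference 1.33, SE 0.44, limma adjusted p = 0.464). None of 5 neuron markers passed in the ARC, where their sum ranged from 536 to 610 RPKM in fed and from 512 to 581 RPKM in fasted libraries.

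The likeness of other genes to the 2 members was described by Pearson's r of log2(RPKM + 1) over the 42 libraries, among 13442 genes. These libraries share their batches and mice, and the values mainly reflect differences between nuclei. The 6 genes most like Pomc were Rxfp1 (r = 0.9199), Tbx3 (0.918), Crabp1 (0.915), Agrp (0.896), Pak3 (0.887) and Npy (0.886). All but Pak3 were largely arcuate, as Crabp1, a retinoic acid-binding protein gene, was at 210 RPKM in the fed ARC and 1.77 to 4.14 RPKM elsewhere. The 6 genes most like Cartpt were Asb4 (0.949), Peg10 (0.938), Dgkk (0.928), Ecel1 (0.921), Gad2 (0.911) and Ghrh (0.905). Asb4 shared its stepwise order, with 107, 52.2, 18.5 and 3.94 RPKM in the fed ARC, DMH, PVN and VMH, and 77.3, 32.1, 14.9 and 2.76 RPKM in fasted mice.

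**Figure D5:**
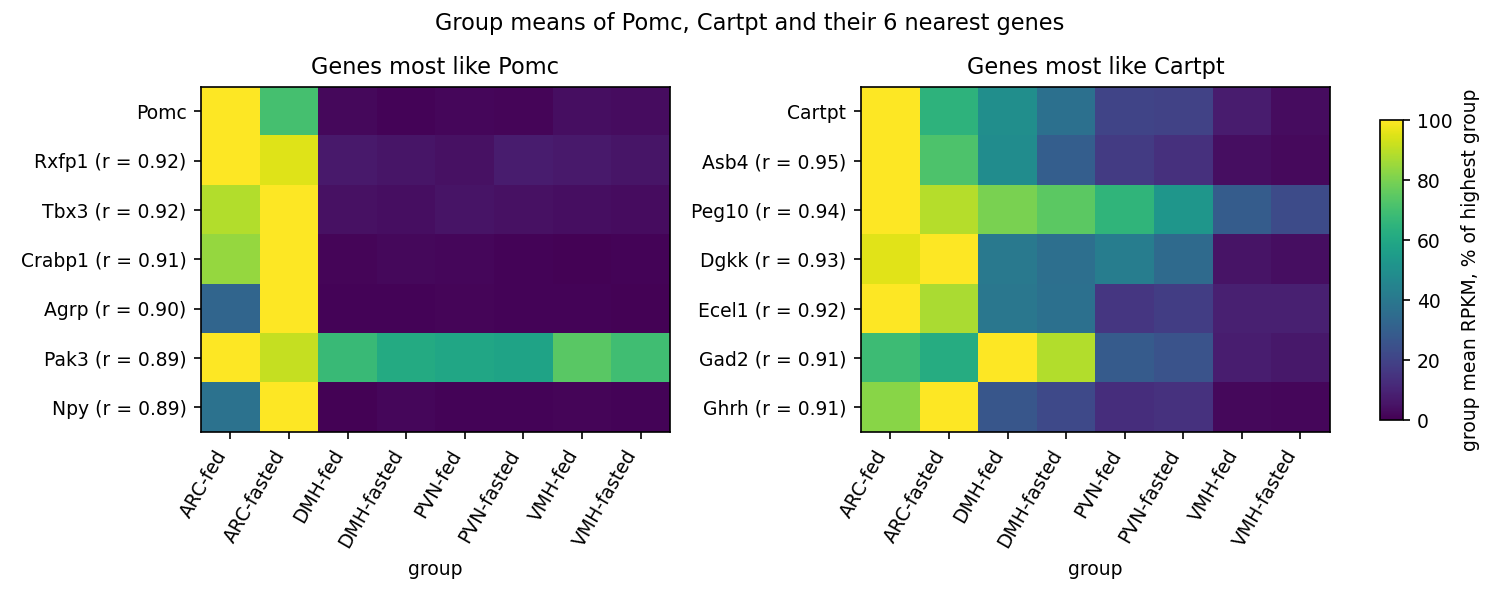
Group mean RPKM, as a percentage of the highest group of each gene (colour), for Pomc and its 6 nearest genes (left) and Cartpt and its 6 nearest genes (right) in the 8 groups. The Pomc set, Pak3 excepted, is bright in the ARC only, while the Cartpt set is also visible in the DMH.

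Pomc and Cartpt were not near each other by this measure. Their r over the 42 libraries was 0.491, which placed Cartpt at rank 373 among genes like Pomc and Pomc at rank 810 among genes like Cartpt. With group means taken out, r between the 2 genes was -0.16 over the 10 ARC libraries as deposited and 0.22 with the batch term removed. In the 12 VMH libraries it was 0.33 and 0.32, in the 9 DMH libraries 0.33 and 0.34, and in the 11 PVN libraries -0.05 and -0.09. With this few libraries, weak values of this kind do not order the nuclei.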

How the data were processed

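RNA of laser-captured nuclei was amplified, sequenced single-end without strand information and aligned to GRCm38, and the authors deposited RPKM per Ensembl gene for all 42 libraries. Per the labels, the tools were CASAVA 1.7, TopHat2 2.0.11, Cufflinks 2.2.1, edgeR and limma. The study left out libraries that stood apart in its own check. From the RPKM values, read steps (97.8 to 98.8% of low values whole, tolerance 0.05), an added count and batch sets were estimated.

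The main test was limma 3.58.1 (R 4.3.3, trend) on log2(RPKM + 1) with 8 group means, over 33579 genes of at least 1 RPKM in at least 4 libraries, with Benjamini-Hochberg adjustment over all and a threshold of 0.1. A log2(RPKM + 1) difference understates the change of low genes. Since values are RPKM and not counts, limma took the place of the study's count model. Single comparisons used two-sided exact permutation tests (Python 3.11.15, SciPy 1.17.1). The steps were tested on simulated data. Ensembl identifiers were paired with GENCODE symbols (35965 of 37907).

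The members and gene lists were chosen with earlier results of these data known. Genes named were the members, the listed genes and, for each member, the 6 genes of highest r. The batch term, permutation within batches and its removal before ratios were chosen after seeing the data. The study's methods call the libraries of a group biological replicates. Npy over Pomc was computed without the alternative settings, apart from permutation within batches.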

Additional observations from a re-analysis of the deposited data

Results flagged for a closer look

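Of 32 groups of values examined, 1 held a library far from the others of its group, and chance flags about 1 in 20 groups. Cartpt in fed VMH replicate 2 was at 47.8 RPKM, while the other 5 libraries held 21.1 to 30.3 RPKM.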

How the results depend on the processing

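Differences here are on the log2 scale. With batch as a term, Cartpt in the VMH (-1.06) passed (limma adjusted p = 0.0872). The Cartpt difference between DMH and PVN in fasted mice passed with a filter of 5 RPKM (0.93), array weights (0.93), rescaling to the total (0.97), depth as a covariate (1.02) and the batch term (1.05). Fitted only on the libraries compared, Pomc VMH minus DMH (0.89), Cartpt ARC minus DMH (1.07) and Cartpt DMH minus PVN (1.27) in fed mice no longer passed. The sign turned for Cartpt in the PVN with array weights (0.070), median-ratio rescaling (0.00030) and the batch term (0.052), and for Agrp over Pomc in the VMH with a pseudocount of 5 (0.00081) and in the PVN with a pseudocount of 0.1 (-0.00016). The cause was not tested. Within batches 1, 2 and 3 the fasting difference moved beyond the spread for Pomc in the ARC (-0.97 in batch 1), VMH (0.43 in batch 1, -0.82 in batch 2), DMH (-1.67 in batch 2, -0.22 in batch 3) and PVN (0.50 in batch 1), and for Cartpt in the ARC (-0.067 in batch 1) and DMH (0.095 in batch 2). Between nuclei in fed mice it did so for Pomc ARC minus VMH (4.33), ARC minus DMH (6.17) and DMH minus PVN (-0.49), and for Cartpt ARC minus DMH (0.43) and ARC minus PVN (1.85). In fasted mice it did so for Pomc ARC minus VMH (3.56, 4.78), ARC minus DMH (6.42) and ARC minus PVN (4.57, 6.04), and for Cartpt ARC minus VMH (4.65), ARC minus DMH (0.39), VMH minus PVN (-1.84) and DMH minus PVN (1.69, 0.49).

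Of 504 refits leaving out 1 library, 471 kept direction and side of the threshold, 11 lost and 3 gained a call, and 19 changed sign. Of 420 such refits with the batch term, set against the fit on groups, 393 kept both, 7 lost and 11 gained a call, and 9 changed sign. The values ranged from -1.22 to -0.91 for Cartpt in the VMH, -0.29 to 0.036 for Pomc in the PVN and -0.18 to 0.16 for Cartpt in the PVN. They ranged from 0.58 to 1.04 for Pomc VMH minus DMH in fed mice, 0.91 to 1.25 for Cartpt ARC minus DMH in fed mice and 0.79 to 1.09 for Cartpt DMH minus PVN in fasted mice. For Cartpt over Pomc they ranged from -0.42 to -0.0032 in the ARC and -0.15 to 0.29 in the PVN, and for Agrp over Pomc from -0.29 to 0.20 in the VMH and -0.36 to 0.36 in the PVN. The replicate block changed no call of Pomc or Cartpt (Cartpt in the VMH stayed at -1.06), and same-numbered fed and fasted libraries did not deviate together (median correlation -0.056 over 20 pairs, 0 above 0.1). Calls over all genes in the ARC, VMH, DMH and PVN numbered 19, 44, 8 and 24, against 16, 24, 6 and 21 with the batch term, 13, 17, 6 and 24 with the replicate block, and 40, 16, 56 and 141 with array weights. Depth limits the low levels, since Pomc outside the ARC rested on as few as 10.6 estimated reads.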

Other observations

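Ppp1r17, a phosphatase regulator used here as a DMH marker, rose with fasting in the PVN, from 18.9 to 47.3 RPKM (1.28 on the log2 scale, limma adjusted p = 0.0345), a level like that of the DMH (49.6 RPKM in fed and 49.7 RPKM in fasted mice). Npvf, another DMH marker, averaged 1.82 RPKM in fed and 1.43 RPKM in fasted PVN libraries.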
